A study of Mus musculus with 22 samples.

Results

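The water-treated pools make up 10 of the 22 libraries of the series, 5 of males and 5 of females, and were chosen only by the treatment in their labels. Each pool held RNA from the PFC of 3 adolescent mice of one sex, all of the inbred strain DBA/2J. The mice had been habituated to gavage with saccharin and were then given water in 8 doses between PND 29 and 42, and PFC tissue was taken 24 h after the last of them. The dissected PFC was a wedge of cortex above the corpus callosum with the prelimbic, infralimbic and anterior cingulate areas in it. A pool is thus an average over 3 mice, and differences between the mice of a pool cannot be seen. The questions put to these control pools were which genes make up most of their RNA, which cell classes those genes mark, which genes vary most between pools that were treated alike, and which genes differ between the sexes.

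The PFC is a layered cortex in which glutamatergic pyramidal neurons are mixed with several kinds of GABAergic interneurons, astrocytes, oligodendrocytes and their precursors, microglia and blood vessels. In adolescence, its myelin sheaths and its inhibitory circuits are still maturing. In bulk RNA of this kind, fewer cells of a type and less RNA per cell cannot be told apart.

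Between 32142664 and 46519801 reads per pool were counted on genes. Male pools held 38783532 reads on average and female pools 36483438, a difference that an exact permutation test did not separate from the spread between pools (p = 0.476, two-sided, smallest possible p of 0.00794). A mean level of at least 1 TPM (a read count divided by gene length and scaled to the same total in every pool) was reached by 17557 of 55385 genes, and 15337 genes reached it in every pool. For every pair of pools, the median squared difference over genes was at least 5.66 times that expected from the sampling noise of the counts. This ratio is too high because both reads of a pair were counted. No pair of pools held identical values. Female pool 1 and female pool 3 stood apart from the others. Of 11921 genes with a mean of at least 5 CPM (counts scaled to a common library size), leaving out the Y-linked genes and *Xist*, 317 in female pool 1 and 139 in female pool 3 differed by more than 0.5 on the log2 scale from the median of the other 9 pools, compared to between 35 and 85 genes in each of the other 8 pools. The SDs of the genes and lists that they lead and the sex test are given with and without them. The relations between genes are given with and without the 2 pools farthest from the median of the first gene.

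Mitochondrial transcripts led the ranking. Values per gene are means ± SD over the 10 pools, in TPM unless another unit is named. *mt-Co1*, a subunit of cytochrome c oxidase, had the highest level (85453 ± 3769), followed by *mt-Nd1* (45764 ± 2092), a subunit of respiratory complex I, and *mt-Cytb* (36885 ± 1534), which belongs to complex III. Mitochondrial genes filled the first 8 places and carried 25.0% of all TPM, with pools between 23% and 26.3%, and between 7.97% and 9.44% of the reads. The 20 highest genes together held 28.9% of TPM, the 100 highest held 37.9% and the 1000 highest held 61.5%.

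Some mitochondrial genes share sequence with other annotated genes. *mt-Co2*, *mt-Atp6* and *mt-Co3* were listed at only 160, 155 and 147 TPM, and these 3 genes were chosen after their values were seen. Windows of 100 bases were taken every 10 bases along each gene and looked up in the transcripts of all other annotated genes. For *mt-Co2* and *mt-Co3*, 100% of the windows also stood in another annotated gene (most often *Gm28661* and *Gm28437*), and for *mt-Atp6*, 98.3% did (*Gm10925*). None of the windows of *mt-Nd1* or *mt-Cytb* were shared. The levels of these 3 genes are therefore uncertain. Among the first 8 genes, 60.9% of the windows were shared in *mt-Nd4* and 31.0% in *mt-Co1*, and their levels are uncertain too.

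Below the mitochondrial genes, secreted and neuronal transcripts had the highest levels. *Cpe*, the carboxypeptidase that trims neuropeptides (3946 ± 101), *Cst3*, a secreted protease inhibitor (3891 ± 242), *Camk2n1*, an inhibitor of CaMKII (3344 ± 179), and *Apoe*, the lipid carrier made mainly by astrocytes (3338 ± 257), took places 10 to 13. *Sparcl1*, a secreted protein of astrocytes that acts on synapses (2746 ± 99), stood at place 15. *Camk2a*, the kinase of the excitatory postsynapse (2656 ± 161), *Nrgn*, the calmodulin-binding protein neurogranin (2612 ± 218), and *Kif5a*, a kinesin of axonal transport (2351 ± 160), stood at places 16, 17 and 19. *Rplp1*, a ribosomal protein (2781 ± 129), and *Selenow*, a small selenoprotein (2209 ± 80.2), completed the coding genes among the first 20. Each of these 10 genes had an SD between pools of at most 0.14 on the log2 scale of CPM. The median SD was 0.13 over the 15300 genes with a mean of at least 1 CPM and 0.08 over those with at least 100 CPM.

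**Figure D1:**
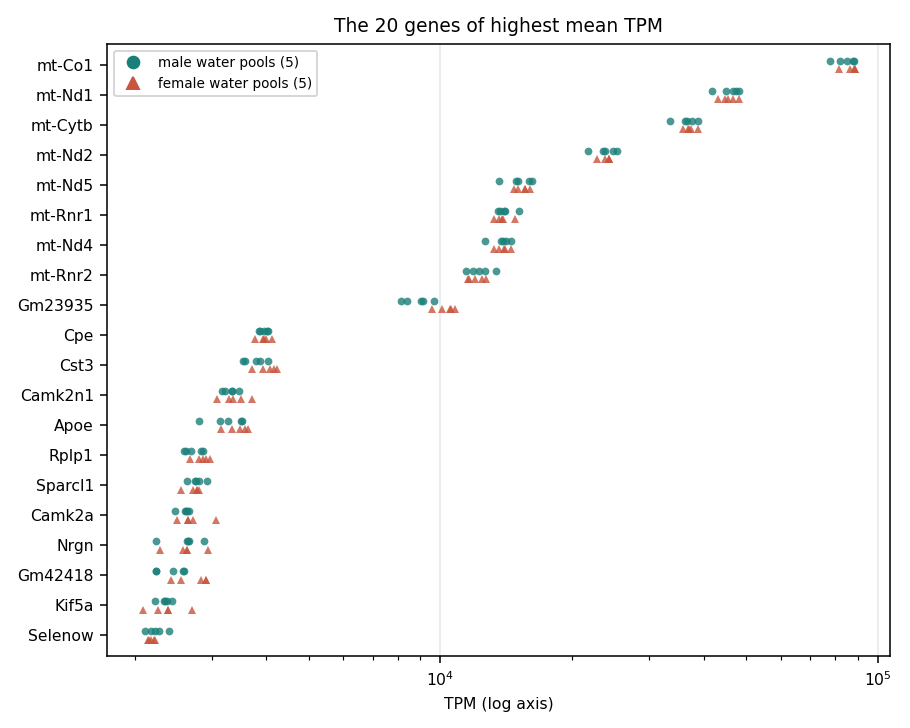
TPM (log axis) of the 20 genes with the highest mean TPM, with 1 point for each of the 5 male (circles) and 5 female (triangles) water pools. The mitochondrial genes fill the first 8 places from 12199 TPM upwards, and the points of a gene lie close together.

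The rank depended on gene length. Ranked by CPM, which does not divide by length, 14 of the same 20 genes remained, and *Slc1a2*, the main glutamate transporter of astrocytes (7002 ± 316 CPM), *Meg3*, a long non-coding RNA (6751 ± 600 CPM), and *Snhg11*, another non-coding RNA (3487 ± 243 CPM), were among those that came in. The median length of the 20 highest genes was 1499 bases by TPM and 2773 bases by CPM. *Gm23935*, a predicted miRNA gene of 57 bases, shows the other end of this dependence. Its level was 9584 ± 917 TPM, place 9, with only 151 ± 14.8 CPM, place 1298. *Gm42418*, a predicted non-coding RNA at place 18 (2570 ± 249), shared 90.2% of its windows with another annotated gene, and its level is uncertain.

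Neuronal markers had the highest median level of the 18 marker lists. All 10 pan-neuronal genes were detected, which here means a mean of at least 1 TPM, with a list median of 422 TPM (391 to 464 over pools) at percentile 99.3 of all genes with any read. *Syp*, a synaptic vesicle protein (1003 ± 112), *Thy1* (920 ± 92.3), *Syt1*, the calcium sensor of vesicle release (702 ± 95.7), and *Snap25*, a SNARE protein (625 ± 54.1), were its highest members. Excitatory neurons came next with a median of 161 TPM, followed by astrocytes (114), myelinating oligodendrocytes (99.1), microglia (84.4) and interneuron subtypes (52.0). Endothelium (37.4), oligodendrocyte precursors (26.5) and mural cells (9.96) followed at some distance. The lists of blood (21.8) and striatum (16.7) lay above that of mural cells. These medians depend on which genes were put on a list, and they do not give shares of cells.

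**Figure D2:**
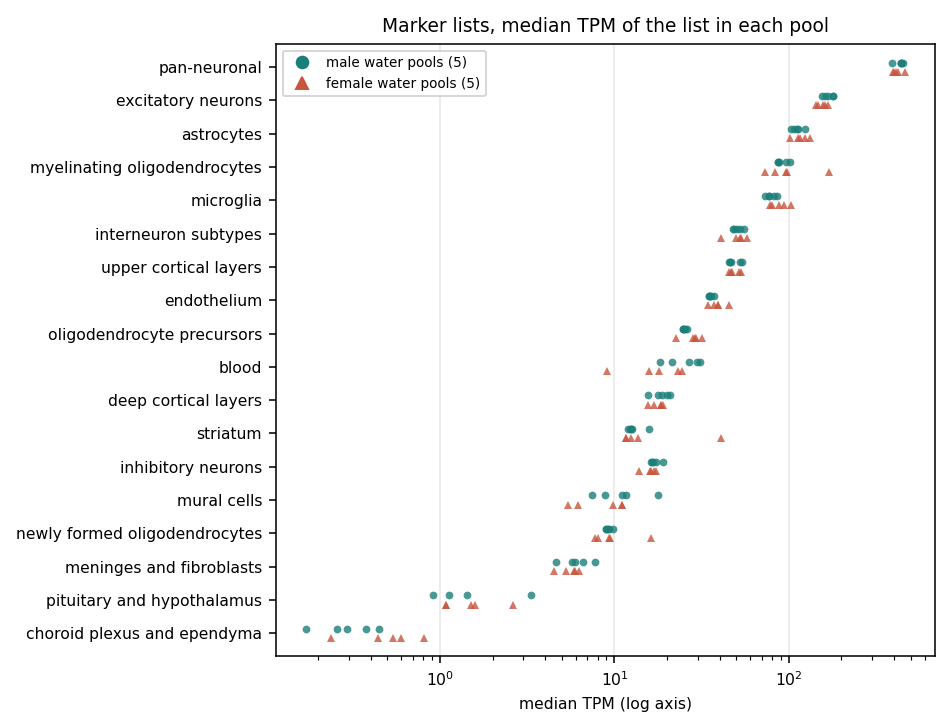
Median TPM (log axis) over the genes of each of the 18 marker lists, with 1 point per male (circles) or female (triangles) water pool. The pan-neuronal and excitatory lists lie highest and the list of choroid plexus and ependyma lowest, and single female pools stand away from the others for myelinating oligodendrocytes (169 TPM) and for striatum (40.8 TPM). The pituitary and hypothalamus list has a median of 0 in male pool 2, which a log axis does not show.

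Markers of cortical projection neurons were present throughout. *Slc17a7*, the vesicular glutamate transporter of cortex, was at 1316, 1260, 1242, 1162 and 1272 TPM in male pools 1 to 5 and at 994, 1218, 1167, 1239 and 1265 TPM in female pools 1 to 5. Female pool 1 was the lowest, and the ranges of the sexes overlapped. The cortical transcription factors *Neurod2* (95.7 ± 5.71) and *Tbr1* (73.7 ± 4.43) were present in every pool with SDs of 0.09 and 0.07 on the log2 scale. *Neurod1*, which marks young neurons, was low (8.44 ± 1.36).

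Markers of all layers were found. Among the upper layer genes, *Lamp5* (263 ± 34.6) exceeded *Cux2* (63.4 ± 3.16), *Calb1* (58.7 ± 6.17) and *Rasgrf2* (48.8 ± 3.48), while the layer 4 gene *Rorb* was low (10.2 ± 0.612). The range of *Lamp5* (191 to 315) did not overlap that of *Cux2* (59.6 to 68.8), whereas those of *Cux2*, *Calb1* and *Rasgrf2* overlapped with their neighbours. Of the deep layer genes, *Fezf2*, a transcription factor of subcortical projection neurons (42.6 ± 2.35), and *Parm1* (39.4 ± 6.98) were the highest. *Tle4* (22.2 ± 2.07), *Etv1* (19.8 ± 1.99), *Ccn2* (19.4 ± 2.97) and *Bcl11b* (18.4 ± 2.96) followed in an order that their overlapping ranges do not fix. *Foxp2* (1.30 ± 0.518) was the lowest.

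GABAergic markers were lower than excitatory ones except for the neuropeptides. The vesicular transporter *Slc32a1* (124 ± 13.4) and the GABA-synthesizing enzymes *Gad1* (98.9 ± 8.68) and *Gad2* (74.1 ± 11) were among the highest of a list whose 12 genes had a median of 16.6 TPM. The interneuron transcription factors *Dlx1* (16.6 ± 2.09) and *Lhx6* (13.6 ± 0.898) were far lower than these.

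*Sst*, the gene of the neuropeptide somatostatin, was the highest interneuron gene and varied little between pools. It was at 1434, 1414, 1397, 1321 and 1338 TPM in male pools 1 to 5 and at 1339, 1426, 1339, 1337 and 1340 TPM in female pools 1 to 5. The groups overlapped, and the SD of 0.05 on the log2 scale was the smallest among the 10 interneuron subtype genes. Its range overlapped that of *Cck*, the gene of cholecystokinin (1263 ± 119), which pyramidal neurons also express. *Npy*, which codes for neuropeptide Y (470 ± 16.1), was lower than both (ranges 443 to 499 against 1022 to 1433 for *Cck*). *Pvalb*, the calcium-binding protein of fast-spiking cells (83.6 ± 11.4), and *Vip* (75.9 ± 7.39) overlapped in range and could not be ordered. *Tac2* (28.1 ± 3.23), *Crh* (16.9 ± 2.41), *Reln* (16.2 ± 1.96) and *Calb2* (15.1 ± 5.40) came below, and *Chodl*, which marks a rare *Sst* cell type, did not reach 1 TPM (0.636 ± 0.198). A neuropeptide message can be abundant in few cells, so these levels do not rank interneuron classes by number.

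The promoter of *Sst* is a textbook example of a cAMP response element, the site to which CREB binds. The window from 250 bases before to 50 bases after its start, chr16:23890795-23891094 on the minus strand of GRCm38.p6 (RefSeq), is printed to show that element with its 8 bases TGACGTCA in capitals, beginning 48 bases before the start.
Sst: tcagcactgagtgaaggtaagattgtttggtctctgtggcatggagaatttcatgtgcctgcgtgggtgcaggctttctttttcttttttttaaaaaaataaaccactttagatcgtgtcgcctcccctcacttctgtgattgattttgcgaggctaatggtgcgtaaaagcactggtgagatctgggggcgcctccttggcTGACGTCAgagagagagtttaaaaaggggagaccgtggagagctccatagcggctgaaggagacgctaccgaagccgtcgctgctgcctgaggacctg
The same 8 bases, which read alike on both strands, stand in 1.79% of 32851 promoter windows of this length. Among the immediate early genes, which CREB is known to drive, 2 of the 9 genes with a window held them, *Btg2* and *Dusp1*. A match of letters is a description and shows no binding in this tissue.

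Receptor subunits differed widely in level. Of the AMPA receptor genes, *Gria1* (196 ± 17.9) and *Gria2* (181 ± 13.4) overlapped, and *Gria3* (132 ± 8.86) and *Gria4* (98.9 ± 4.93) each lay below without overlap. The kainate subunit *Grik5* (258 ± 9.04) exceeded all of them, and its lowest pool (247) lay above the highest pool of *Gria1* (220). *Grin1*, the obligatory NMDA receptor subunit (271 ± 17.9), was followed by *Grin2c* (79.7 ± 5.36) and then by *Grin2b* (52.6 ± 5.97) and *Grin2a* (40.6 ± 6.23). The range of *Grin2c* (72.8 to 90.2) lay above that of *Grin2b* (40.8 to 60.7), while *Grin2b* and *Grin2a* overlapped. *Grin3b* was not detected at the level of 1 TPM (0.758 ± 0.330). These orders of receptor subunits, and those that follow, are of TPM and depend on gene length. The longest transcripts of *Gria2* and *Grik5* have 10371 and 4061 bases, and those of *Grin2b* and *Grin2c* 24060 and 4895 bases. The order by CPM, which does not divide by length, is not given here and can differ.

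Among metabotropic glutamate receptors, *Grm3*, which astrocytes also express (106 ± 4.97), and *Grm2* (76.9 ± 9.52) were highest, *Grm5* (66.0 ± 7.18) overlapped with *Grm2*, and *Grm8* (6.62 ± 1.18) was lowest. Among the GABA-A receptor genes, *Gabra3* (166 ± 13) and the extrasynaptic subunit *Gabrd* (101 ± 7.39) were high, and the list ran down to *Gabrg3* (16.7 ± 1.59) and *Gabrg1* (15.6 ± 0.983). Each of the first 9 of these 12 genes overlapped in range with the next. Female pool 1 was the lowest pool for 11 of the 12 GABA-A receptor genes.

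Components of the perineuronal net, the matrix that encloses mature *Pvalb* cells, were unequal. The lecticans *Bcan* (358 ± 27.0) and *Ncan* (159 ± 3.56) and the link protein *Hapln4* (125 ± 14.3) were high, *Tnr* (59.6 ± 3.79) and *Hapln1* (26.0 ± 1.16) were intermediate, and *Acan*, the lectican most used to stain these nets, was close to the limit of detection (1.36 ± 0.282). Their ranges did not overlap from *Bcan* to *Hapln1*.

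Astrocyte markers were high and even. *Slc1a2* (1933 ± 72.4), *Glul*, glutamine synthetase (1402 ± 85.1), and *Aldoc* (945 ± 58.4) led the list, and the median SD of its 12 genes was 0.10. *Gfap* was at 129 ± 12.4, above the list median of 114. *Ctss* (265 ± 30.0) and *C1qa* (194 ± 18.9) were among the highest microglial genes, with the homeostatic markers *P2ry12* (101 ± 8.03), *Cx3cr1* (72.4 ± 8.51) and *Tmem119* (49.9 ± 6.05) all present. Of vascular genes, *Cldn5*, the claudin of the blood-brain barrier (202 ± 38.1), and *Rgs5* of pericytes (138 ± 10.4) were highest.

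Most genes of choroid plexus, ependyma, pituitary and hypothalamus were low. Of 10 genes of choroid plexus and ependyma, 3 were detected, and the list median was 0.438 TPM. *Folr1* and *Otx2* stood at 0.188 and 0.0761 TPM. Of 7 pituitary and hypothalamic hormone genes, 4 reached 1 TPM, the highest being *Pomc* at 4.5 ± 1.81, while *Prl* was listed at 0 in 4 pools and *Gh* in 5. Hemoglobin messages remained from blood, with *Hbb-bs* at 234 ± 57.5 and *Hba-a1* at 203 ± 54.7. *Hba-a2* was listed at 1.37 ± 1.00, but 73.9% of its windows were shared with other genes, mostly with *Hba-a1*, so that the split between the 2 copies is uncertain.

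Most of the enzymes of histone lysine methylation that the study was concerned with varied little between pools. *Ehmt2*, the H3K9 methyltransferase G9a (162 ± 6.33), was the highest of 11 H3K9 enzymes, above the demethylases *Kdm4b* (48.6 ± 2.67) and *Kdm1a* (45.6 ± 2.39) and the trimethylating enzyme *Setdb1* (32.4 ± 2.31). *Ehmt1*, its partner, was at 17.3 ± 0.736, and *Prdm2* at 25.8 ± 1.94. *Suv39h1* (16.5 ± 0.857) exceeded *Suv39h2* (3.00 ± 0.544). The demethylase *Kdm4c* was at 17.2 ± 0.873, and *Kdm4d* was the lowest of the list (1.14 ± 0.393, 0.473 to 1.67 over pools). *Kdm4d* and *Suv39h2* varied more than the others, with SDs of 0.48 and 0.23 on the log2 scale. The 8 H3K36 enzymes lay close together between *Kdm2b* (7.28 ± 0.727) and *Ash1l* (38.9 ± 1.51), and all neighbours from *Ash1l* to *Kdm2a* overlapped. The median SD was 0.07 for the H3K9 enzymes and 0.06 for the H3K36 enzymes, and no member with at least 1 CPM exceeded 0.5.

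Genes of cholesterol synthesis, on which myelin growth depends, had a list median of 47.8 TPM, with *Hmgcs1* (233 ± 9.68) and *Insig1* (98.2 ± 4.83) among the highest and a median SD of 0.10. *Fdps* was listed at 1.26 ± 0.330 TPM, far below its neighbours in the pathway. It shared 6.99% of its windows with other annotated genes, most often with *Gm43738*. The part of shared sequence or of the annotation in this low value was not tested, and the level of *Fdps* is uncertain. The reference genes *Gapdh* (654 ± 22.3), *Actb* (514 ± 12.6) and *Ppp2r2a* (32.1 ± 2.09) had SDs of 0.06, 0.05 and 0.09.

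Variation between pools was small for most genes. The SD of log2 CPM around the mean of each sex had a median of 0.13 over 15300 genes with a mean of at least 1 CPM, and 309 of these genes (2.02%) exceeded 0.5. Low counts made up most of them, since 289 of the 309 had a mean below 5 CPM. Of the 11927 genes with at least 5 CPM, 20 (0.168%) exceeded 0.5, and 30 are named by rank, from *Ttr* (1.24) to *Oprk1* (0.46), with *Mal* (0.46) next below. The pool farthest from its sex mean was female pool 3 for 53 of the 309 genes and female pool 1 for 42, compared to 16 to 32 genes for the others.

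**Figure D3:**
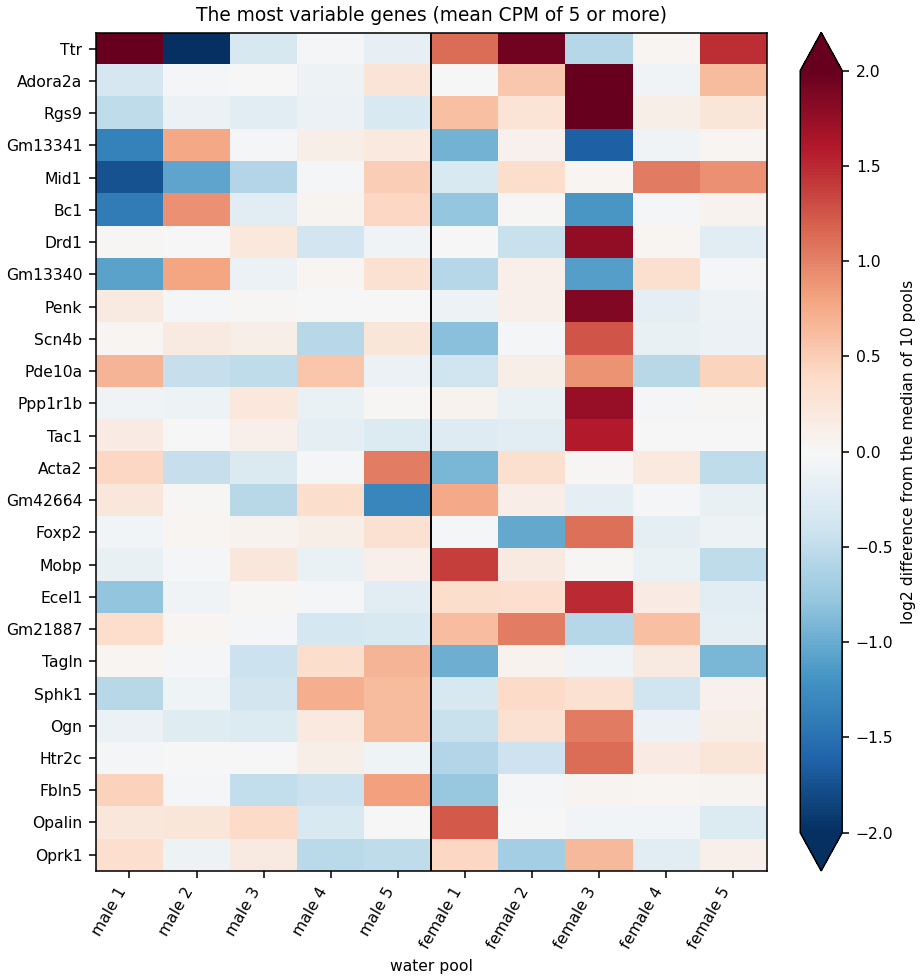
Log2 CPM of genes among the 30 most variable relative to the median of the 10 water pools, without the Y-linked genes *Kdm5d* and *Uty*, which female pools lack. Colours run from blue (lower) to red (higher) and are capped at 2 log2 units, and a vertical line divides male from female pools. Female pool 3 is red for *Adora2a*, *Rgs9*, *Drd1*, *Penk*, *Ppp1r1b* and *Tac1* and blue for *Gm13341*, *Bc1* and *Gm13340*, and female pool 1 is red for *Mobp* and *Opalin*.

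Myelin genes were higher in female pool 1 than in any other pool. *Mbp*, myelin basic protein, was at 595, 641, 724, 602 and 687 TPM in male pools 1 to 5 and at 1461, 735, 646, 624 and 498 TPM in female pools 1 to 5. Female pool 1 stood at 2.28 times the median of the other pools, and female pool 5 was the lowest. *Mobp*, a structural protein of myelin, was at 158, 175, 197, 155 and 186 TPM in male pools and at 458, 193, 179, 156 and 121 TPM in female pools, with the same highest and lowest pool.

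All 13 genes of myelinating oligodendrocytes were at their highest of the 10 pools in female pool 1, by a median of 1.00 on the log2 scale, and 12 of the 13 were at their lowest in female pool 5 (-0.49). *Mobp* had the largest ratio in female pool 1 among *Mbp*, *Mobp*, *Mag*, *Mog*, *Mal*, *Cnp* and *Opalin*, at 2.61 times the median of the others, and *Cnp* the smallest at 1.83 times. Of newly formed oligodendrocytes, 7 of 8 genes were highest in female pool 1 by a median of 0.63, among them *Bcas1* (198 TPM against 85.9 to 112 TPM elsewhere) and *Enpp6* (7.81 against 2.81 to 4.70 TPM). The precursor markers were closer to the other pools by a median of 0.30, with *Pdgfra* at 31.8 TPM against 25.5 to 29.4 TPM and *Sox10*, which the whole lineage expresses, at 43.9 against 20.5 to 29.4 TPM. *Hapln2*, a link protein of the nodes of Ranvier, was at 29.5 TPM in female pool 1 against 10.1 to 16.1 TPM.

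Many neuronal genes were low in the same pool. It was the lowest pool for 7 of 10 pan-neuronal genes (median -0.32 on the log2 scale) and for 5 of 7 metabotropic glutamate receptor genes (-0.33). Other neuronal lists stayed closer to the other pools. Female pool 1 was the lowest for 1 of 7 upper layer genes (-0.02) and 2 of 10 deep layer genes (-0.07). It was also the lowest for 3 of 9 AMPA and kainate receptor genes (-0.04). The share of all genes that were lowest in this pool is not given here. *Syt1* was at 486 TPM against 622 to 824 TPM in the other pools, *Syp* at 724 against 948 to 1099 TPM, and *Parm1* at 22.6 against 36.5 to 47.8 TPM. *Map2*, by contrast, was highest there (334 against 274 to 312 TPM). Female pool 1 also had the largest share of reads outside exons (9.35% against 7.80% to 8.56%) and the smallest share of reads in the 3′-most of 3 equal parts of the exon bins (53.2% against 54.2% to 55.8%), and the part of either in these differences was not tested. Without female pool 1, the SD of *Mbp* was 0.19 in place of 0.42 and that of *Mobp* 0.23 in place of 0.52. The median SD was 0.20 in place of 0.41 over the myelinating list and 0.19 in place of 0.33 over that of newly formed oligodendrocytes.

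Relations between genes were tested across the 10 pools in log2 CPM with permutation tests, Benjamini-Hochberg adjusted over 3 pairs. The relation of *Mbp* and the precursor receptor *Pdgfra* did not pass (Pearson r = 0.56, permutation p = 0.07, adjusted 0.096; Spearman rho = 0.45, p = 0.19, adjusted 0.19; r = 0.59 without female pools 1 and 5, the 2 farthest from the median of *Mbp*). Without female pool 1 alone, r was 0.16. Within each sex there are 5 pools, too few for a value.

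Striatal genes were high in female pool 3, where all 10 markers of that region were at their maximum by a median of 1.95 on the log2 scale, with the adenosine receptor gene *Adora2a* at 44.7 TPM against 3.26 to 6.30 TPM in the other 9 pools and the dopamine receptor gene *Drd2* at 20.6 against 1.67 to 3.85 TPM. Without that pool the SD was 0.29 in place of 1.03 for *Adora2a*, 0.19 in place of 0.77 for *Rgs9* and 0.11 in place of 0.62 for *Penk*. The same pool had the lowest hemoglobin (*Hbb-bt* at 9.08 against 15.7 to 30.8 TPM) and the highest *Foxp2* (2.61 against 0.582 to 1.49 TPM) and *Bcl11b* (25.6 against 15.4 to 20 TPM), which are deep layer markers that striatal neurons express too. Of the 10 excitatory markers, 1 was at its highest and 3 at their lowest in that pool (median -0.07). Of 12 markers of inhibitory neurons, 5 were at their highest (median 0.18), among them *Gad1* (117 TPM), *Gad2* (102 TPM) and *Slc32a1* (153 TPM). So were 6 of 12 GABA-A receptor genes (median 0.14), but also 3 of 8 reference genes (median 0.13). The share of all genes at their highest in female pool 3 is not given here, so these counts do not single out the inhibitory and GABA-A lists. Over the 10 striatal markers the median SD was 0.69 with female pool 3 and 0.23 without it.

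**Figure D4:**
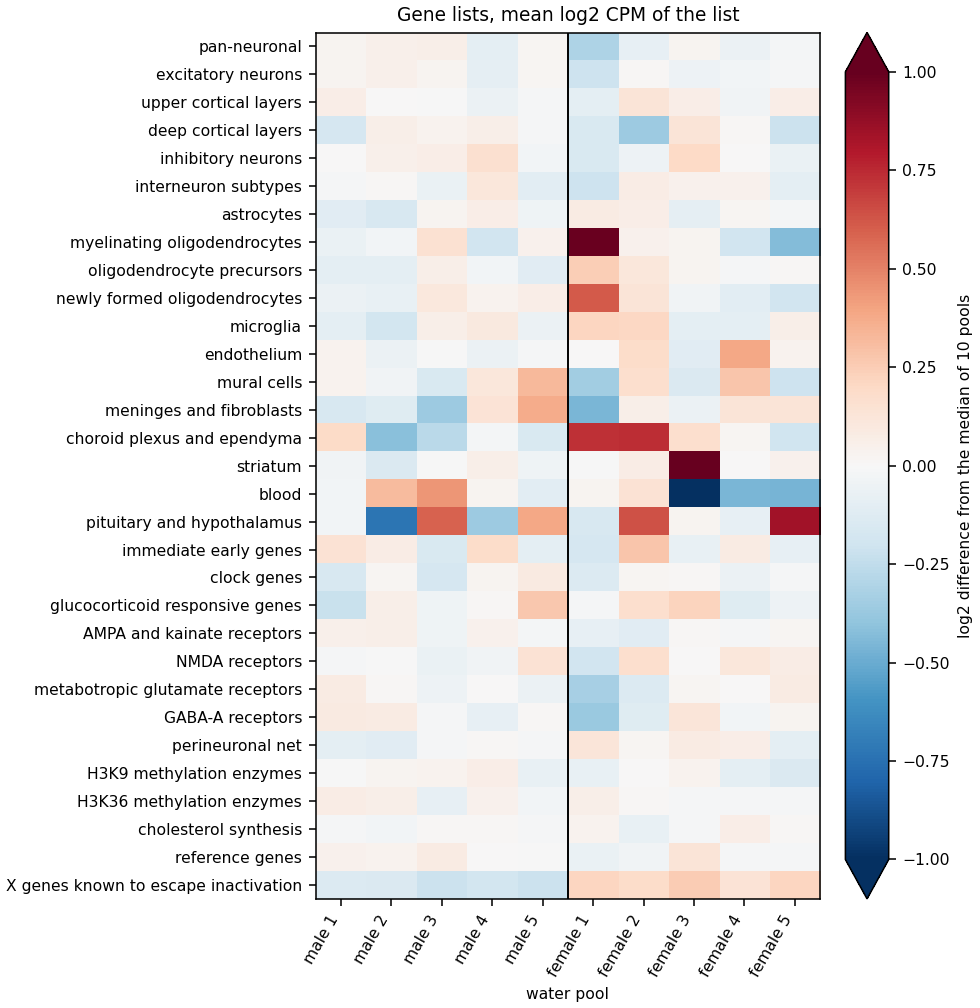
Mean log2 CPM of 31 gene lists in each of the 10 water pools, as the difference from the median of the pools. Colours are capped at 1 log2 unit and a vertical line divides the sexes. Myelinating oligodendrocytes in female pool 1 and striatum in female pool 3 reach the red end, blood in female pool 3 the blue end, and the histone enzyme and cholesterol lists stay near 0.

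The other variable genes followed different pools. *Ttr*, the transthyretin of choroid plexus, was at 51.6, 3.15, 10, 12.5 and 11.5 TPM in male pools and at 28.8, 48.7, 8.88, 13.1 and 35.9 TPM in female pools. High values were found in both sexes and in pools 1, 2 and 5 of the females. In the pool with the highest *Ttr*, male pool 1, 2 of the 10 genes of choroid plexus and ependyma were at their highest and 2 at their lowest, with a median of 0.35 on the log2 scale above the other pools. *Kl* was at 1.47 TPM there (0.565 to 1.27 TPM elsewhere) and *Kcnj13* at 2.60 TPM, while *Folr1* was at 0.0685 TPM and *Otx2* at 0.112 TPM. The part of choroid plexus tissue in the level of *Ttr* was not tested. *Acta2*, the smooth muscle actin, was highest in male pool 5 (18.7 TPM against 4.94 to 12.2 TPM), as were the muscle myosin *Myh11* (6.58 against 2.12 to 3.85 TPM), *Tagln* (16.8 against 5.46 to 13.2 TPM) and 5 of 8 genes of meninges and fibroblasts. In female pool 4, 7 of 8 endothelial genes were at their highest, with *Cldn5* at 272 TPM against 153 to 233 TPM. *Calb2*, which codes for calretinin, was at 29.9 TPM in male pool 4 and between 11 and 15.7 TPM in the other pools. *Aldh1a7*, an aldehyde dehydrogenase gene named for its weight in the first principal component, was at 28.7 TPM in female pool 4 and between 0.658 and 2.84 TPM elsewhere.

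Some non-coding genes varied with a similar order of pools. *Bc1*, a short dendritic RNA of neurons, was at 58.1, 295, 127, 156 and 202 TPM in male pools and at 90.3, 152, 69.3, 148 and 158 TPM in female pools. *Gm13341*, a pseudogene on chromosome 2, was at 16.6, 74.6, 40.0, 45.3 and 48.2 TPM in male pools and at 22.4, 44.2, 13.9, 39.7 and 43.0 TPM in female pools. Both were highest in male pool 2, and male pool 1, female pool 1 and female pool 3 were the 3 lowest pools for each. *Gm13340* next to it had its lowest values in the same pools (42.5, 43.0 and 61.5 TPM against 80.1 to 159 TPM). It shared 5.52% of its windows with other genes, most of them with *mt-Co1*, whose own level had an SD of 0.09. *Mid1*, an X-linked ubiquitin ligase gene that shares 21.9% of its windows with another gene, was at 1.32, 2.18, 2.84, 4.24 and 6.19 TPM in male pools and at 3.62, 5.55, 4.57, 8.92 and 8.21 TPM in female pools. The sexes overlapped.

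The first 2 principal components of log2 CPM held 29.0% and 14% of the variance. The first divided the sexes, with scores from -15.7 to -11.4 in male pools and from 12.3 to 19.7 in female pools, and was led by *Xist* at one end and by *Eif2s3y*, *Ddx3y*, *Kdm5d* and *Uty* at the other. The second set female pool 3 (22.3) against female pool 1 (-20.8), while the other 8 pools lay between -4.68 and 5.29. *Adora2a*, *Drd2* and *Cartpt* were among the 10 leading genes at its positive end, and *Thbs4* led the negative end (4.86 TPM in female pool 1 against 0.369 to 1.5 TPM).

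Several genes of the circadian clock were low or high in the same pools. The clock is a loop in which CLOCK and ARNTL switch on the Per and Cry genes through E-boxes, and PER and CRY proteins shut them off, so that their messages swing over the day. *Per2* was at 16.7, 30.0, 19.8, 32.1 and 31.3 TPM in male pools 1 to 5 and at 17.4, 30.5, 29.7, 26.5 and 27.7 TPM in female pools 1 to 5. Male pools 1 and 3 and female pool 1 were low, the other 7 pools lay between 26.5 and 32.1 TPM, and the sexes overlapped. *Ciart*, a repressor of the loop, was at 16.5, 22.0, 15, 21 and 27.4 TPM in male pools and at 20.3, 18.2, 18.8, 15.8 and 22.9 TPM in female pools. Of the 12 clock genes, 6 were highest in male pool 5 (*Per1*, *Per3*, *Dbp*, *Tef*, *Nr1d2* and *Ciart*), where *Clock* (22.2 TPM) and *Cry1* (11.1 TPM) were at their lowest and *Arntl* (17.3 TPM) shared its lowest value with female pool 3. *Dbp*, an output factor of the clock, was at 157 TPM in male pool 5 against 105 to 135 TPM. The SDs were 0.39 for *Per2*, 0.27 for *Ciart*, 0.21 for *Per1* and 0.19 for *Dbp*, whereas *Cry2* (0.06), *Clock* (0.07) and *Nr1d1* (0.07) were steadier than the median gene. Sampling hours of single pools were not used here, and their part in this pattern was not tested.

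Promoter windows of *Ciart*, *Per1* and *Tef* are shown because these genes were among those highest in male pool 5 and hold the E-box letters CACGTG, in capitals. *Per3* is shown for the letters TTATGTAA, a form of the D-box to which DBP and TEF bind, also in capitals. The windows run from 250 bases before to 50 bases after the start (GRCm38.p6, RefSeq) at chr3:95882179-95882478 for *Ciart* (minus strand), chr11:69098699-69098998 for one of the 2 windows of *Per1* (plus strand), chr15:81802423-81802722 for one of the 2 of *Tef* (plus strand), and chr4:151044616-151044915 for *Per3* (minus strand).
Ciart: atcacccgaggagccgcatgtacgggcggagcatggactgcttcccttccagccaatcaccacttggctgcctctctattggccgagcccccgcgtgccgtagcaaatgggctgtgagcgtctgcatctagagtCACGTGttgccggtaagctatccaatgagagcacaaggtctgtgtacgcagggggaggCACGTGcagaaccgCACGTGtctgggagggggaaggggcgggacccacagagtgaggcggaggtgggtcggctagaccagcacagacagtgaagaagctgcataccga
Per1: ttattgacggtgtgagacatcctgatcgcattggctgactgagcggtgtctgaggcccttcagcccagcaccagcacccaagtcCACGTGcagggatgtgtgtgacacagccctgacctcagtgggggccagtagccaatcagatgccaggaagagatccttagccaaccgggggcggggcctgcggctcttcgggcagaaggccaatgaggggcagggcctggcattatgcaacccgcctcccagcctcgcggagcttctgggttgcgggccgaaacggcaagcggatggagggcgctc
Tef: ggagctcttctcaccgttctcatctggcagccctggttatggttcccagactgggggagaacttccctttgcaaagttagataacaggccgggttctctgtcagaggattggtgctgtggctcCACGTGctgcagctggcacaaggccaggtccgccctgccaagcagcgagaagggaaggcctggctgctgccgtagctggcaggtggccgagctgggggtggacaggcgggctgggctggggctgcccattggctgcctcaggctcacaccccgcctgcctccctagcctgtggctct
Per3: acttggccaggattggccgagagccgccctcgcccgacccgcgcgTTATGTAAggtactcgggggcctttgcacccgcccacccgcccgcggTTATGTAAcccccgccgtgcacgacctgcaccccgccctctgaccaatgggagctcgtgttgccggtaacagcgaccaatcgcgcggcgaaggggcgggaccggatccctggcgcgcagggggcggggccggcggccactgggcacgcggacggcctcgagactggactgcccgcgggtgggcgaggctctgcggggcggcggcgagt
*Ciart* held 3 E-boxes, which began 116, 58 and 44 bases before the start, and *Per1* and *Tef* held 1 each, 166 and 127 bases before it. *Per3* held 2 copies of the D-box letters and no E-box. Of the 11 clock genes with a window, 4 held an E-box (*Cry1* was the other one), against 8.09% of all 27025 genes with a window. The same letters stood in 7.15% of the windows, and TTATGTAA, searched on both strands, in 0.938%. Genes of the clock list without a match in this window were *Arntl*, *Clock*, *Cry2*, *Dbp*, *Nr1d1* and *Nr1d2*, and no match says only that these letters are not in the 300 bases.

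**Figure D5:**
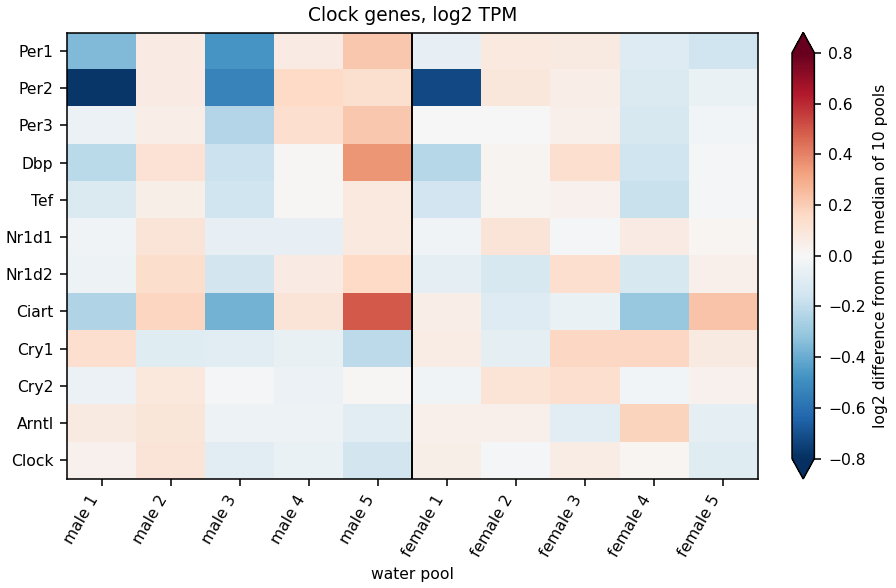
Log2 TPM of the 12 clock genes in each water pool, as the difference from the median of the 10 pools, capped at 0.8 log2 units, with a vertical line between male and female pools. *Per2* is blue in male pools 1 and 3 and in female pool 1, and *Per1*, *Per3*, *Dbp* and *Ciart* are red in male pool 5.

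Immediate early genes, which neuronal activity switches on within minutes, were modest. *Egr1* (84.0 ± 10.2), *Nr4a1* (82.9 ± 10.3) and *Arc* (82.6 ± 23.8) were the highest of 12, and *Fos* (11.1 ± 1.68) was low. *Arc*, whose protein acts in synaptic plasticity, was at 75.5, 79.3, 44.2, 126 and 63.0 TPM in male pools and at 92.4, 114, 86.1, 69.6 and 75.6 TPM in female pools. Male pool 4 was the highest and male pool 3 the lowest, and the sexes overlapped. *Egr2* had the largest SD of the list (0.62), at 4.03 ± 1.61 TPM. *Fos* and *Egr1* were related with r = 0.55, which did not pass (permutation p = 0.096, adjusted 0.096; rho = 0.62, p = 0.058, adjusted 0.088; r = 0.35 without female pools 1 and 5). Of 7 glucocorticoid responsive genes, *Zbtb16* (35.9 ± 2.81), *Tsc22d3* (29.1 ± 4.65) and *Sgk1* (26.5 ± 2.41) were the highest, and *Tsc22d3* and *Fkbp5* were high in male pool 5 (39.6 and 7.97 TPM) and female pool 3 (34.4 and 8.62 TPM) against 24.3 to 30.3 and 5.21 to 6.47 TPM elsewhere.

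The genes that passed the edgeR quasi-likelihood test of sex all lay on the sex chromosomes. Of 18397 genes tested, 11 (0.0598%) passed an adjusted p of 0.05, 6 higher in females (0.0326%) and 5 higher in males (0.0272%). *Xist*, the RNA that coats the inactive X chromosome, had 10, 10, 12, 24 and 22 reads in male pools and 60601, 57684, 50237, 49030 and 45558 reads in female pools. The Y-linked genes *Eif2s3y*, *Ddx3y*, *Kdm5d*, *Uty* and *Gm29650* had between 187 and 4853 reads in each male pool and between 0 and 4 reads in each female pool. These were 5 of the 7 Y-linked genes tested (71.4%). All 10 pools thus matched the sex in their labels. *Tsix*, which lies antisense to *Xist*, passed with 44 to 78 reads in female pools against 0 to 4 in male pools. Counting used strand, but 44.7% of the windows of *Tsix* stand in another transcript, mostly that of *Xist*, so its level is uncertain.

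Genes known to escape X inactivation made up most of the other calls. *Eif2s3x*, a subunit of translation initiation factor eIF2, was at 30.1, 32.1, 25.7, 28.0 and 25.3 TPM in male pools and at 40.6, 42.2, 43.0, 40.9 and 43.7 TPM in female pools. In *Eif2s3x* 35.2% of the windows were shared, mostly with *Gm2223*, so its level is uncertain. The female minus male difference was 0.57 on the log2 scale (SE 0.0617, edgeR adjusted p = 2.59e-05). *Kdm6a*, an H3K27 demethylase (0.41, SE 0.0630, adjusted p = 0.00419), *Kdm5c*, an H3K4 demethylase (0.31, SE 0.0504, adjusted p = 0.0114), and *5530601H04Rik*, a non-coding gene (0.38, SE 0.0690, adjusted p = 0.0343), passed in the same direction. The call of *5530601H04Rik* was lost in 9 of the 10 fits that left out 1 pool, all but that without female pool 3 (adjusted p = 0.0522 to 0.182), and without both female pools 1 and 3 (0.127). That of *Kdm5c* was lost without male pool 1, 2 or 3 or female pool 2 (edgeR adjusted p = 0.0569 to 0.0774). Of the 4 genes on the list of genes that escape X inactivation, 3 passed (2 in the fits that lost *Kdm5c*), against 1.01% of the 596 X-linked genes tested. *Ddx3x*, the fourth, was at 133 ± 12.3 TPM and did not pass (0.21, SE 0.0454, adjusted p = 0.193).

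Among 17794 genes outside X and Y, 0 passed, while 1018 had an unadjusted p under 0.05 (5.83% of all genes tested did). The smallest adjusted p was 0.118, for *A330076H08Rik* (0.44, SE 0.0898), followed by *Rreb1* (0.31, SE 0.0627, adjusted p = 0.128). limma-voom also called 0, edgeR's likelihood ratio test 4 and DESeq2 5 of these genes, and without both female pools 1 and 3 the quasi-likelihood test called 3. Of 275 tested genes on the lists other than the sex lists, 0 passed. In data simulated for this comparison on 18123 genes, 72% of differences of 0.5 and 97% of differences of 1 on the log2 scale were found. False calls made up 8.15%, above the adjusted p threshold of 0.05. The differences were placed only in genes with a mean of at least 1 CPM, and no simulated pool was made to stand apart as female pools 1 and 3 do. These shares therefore do not cover genes below 1 CPM, and smaller differences could be missed with 5 pools per sex.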

How the data were processed

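RNA-seq of poly(A) RNA from pooled PFC was analysed for the 10 water libraries. The authors deposited 1 table of read counts per gene and, for each library, read counts per exon bin. Per the file headers the gene counts were made with featureCounts 2.0.2 on Ensembl release 99 (GRCm38) with strand setting 2, and no source used here names the counter of the exon bins. The submitters' processing notes name STAR 2.7.8a, Subread 2.0.2 and FastQC. The header gives no option to count pairs, and 72.9% of gene counts from 1 to 20 were even, so both reads of a pair were counted. The genome build is of C57BL/6J mice, and the effect of mismatches with DBA/2J on these counts was not tested.

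Gene counts were scaled to CPM with TMM factors (0.984 to 1.02), and TPM were computed with the gene lengths in the table. Exon bins served only for the shares of reads outside exons and in the 3′-most part of genes. Sexes were compared with edgeR 4.0.16 (glmQLFit and glmQLFTest, filterByExpr with a minimum count of 10, Benjamini-Hochberg adjusted p below 0.05) in R 4.3.3. Variation was the SD of log2 CPM (prior count 2) around the sex means. Correlations used 100000 permutations (scipy 1.17.1). The test was tested on simulated data. Alternatives were DESeq2 1.42.0, limma-voom 3.58.1, edgeR's likelihood ratio test, other filters, a replicate block and leaving out pools. P-values measure the spread between pools. Depth was 32142664 to 46519801 reads per pool, which leaves few counts for genes near 1 CPM. The labels give no batch.

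The members and gene lists were chosen with earlier results of these data known. Named genes are the 20 highest by TPM and by CPM, the 30 with the largest SD at a mean of at least 5 CPM, the 10 with the smallest p in each direction, the 10 with the largest loadings of each sign on the first 2 principal components, and members of the 32 lists. Promoter sequences are from RefSeq (GRCm38.p6). Ethanol libraries were not used here. Some genes that the rule names, and 1 of the 3 gene pairs, are not reported here.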

Additional observations from a re-analysis of the deposited data

Results flagged for a closer look

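In 186 groups of 5 pools, 27 single pools lay far from the other 4 of their sex by Dixon's criterion, where chance gives about 9.3 (1 in 20 groups) if the groups are independent and chosen blindly. They were neither, since they included genes named for a large SD between these same pools, and related genes stood out in the same pool. The 27 can therefore not be weighed against 9.3. Of the 27, 13 were in female pool 3 and 7 in female pool 1.

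In female pool 3 the mean log2 CPM was 5.63 for the striatal list (other female pools 3.42 to 3.5) and 6.97 for the reference genes (6.78 to 6.83). Its normalised levels were 37.1 CPM for *Adora2a*, 57.1 CPM for *Rgs9*, 36.3 CPM for *Drd1*, 147 CPM for *Penk*, 101 CPM for *Scn4b*, 127 CPM for *Ppp1r1b*, 51.4 CPM for *Tac1*, 11.6 CPM for *Foxp2* and 15.5 CPM for *Ecel1*, all above the other females. *Sparcl1* was lower there, at 2034 CPM against 2221 to 2276 CPM. *Gm29650* was at 0.0549 CPM, where the other females had 0.

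In female pool 1 the excitatory list had a mean log2 CPM of 7.57 (7.73 to 7.79 in the other females), and 53.2% of reads lay in the 3′-most part of genes (54.4% to 54.7%). *Mobp* was at 847 CPM (229 to 370), *Opalin* at 19.5 CPM (6.9 to 8.31), *Gm42664* at 11.7 CPM (6.12 to 7.6), *Xist* at 1645 CPM (1370 to 1422) and *Fbln5* at 3.86 CPM (6.36 to 6.78).

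In male pool 4 the pan-neuronal list was at 9.06 (9.18 to 9.22 in the other males) and the excitatory list at 7.69 (7.8 to 7.83). In male pool 5 the NMDA receptor list was at 6.24 (6.03 to 6.09). *Ttr* was at 16.8 CPM in male pool 1 (1.0 to 4.13). A few reads of Y-linked genes appeared in female pools, with *Kdm5d* at 0.113 CPM in female pool 4 and *Uty* at 0.095 CPM and *Eif2s3y* at 0.0475 CPM in female pool 2, where the other females had 0. The causes of these values were not tested.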

How the results depend on the processing

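The count of genes that differed by sex was 11, and 18 with DESeq2 and 79 without a filter on low counts, with 9 to 13 when single pools were left out. Outside X and Y the count was 0, and 5 with DESeq2, 4 with edgeR's likelihood ratio test, 57 without a filter, 0 to 2 when single pools were left out (2 without female pool 3, 1 without female pool 4 and 1 without female pool 5) and 3 without both female pools 1 and 3, an alternative chosen after seeing the data. With the replicate number as a block, 10 genes passed, 9 of them among the 11, and 0 outside X and Y. The calls of *Kdm5c* (adjusted p = 0.102) and *5530601H04Rik* (0.188) were lost under the block. The numbers did not pair the pools (correlations of deviations 0.05, -0.02, 0.01, -0.07 and 0.04). Of variable genes there were 309, but 20 at a mean of at least 5 CPM, 11159 with no minimum and 301 to 345 when single pools were left out. With mitochondrial genes left out, 12 of the 20 highest genes remained, since 8 were removed by construction. The relation of *Mbp* and *Pdgfra* ranged from 0.16 to 0.72 when single pools were left out and passed without female pool 5 (r = 0.72, permutation p = 0.01). *Fos* and *Egr1* ranged from 0.3 to 0.66 and passed without male pool 1 (r = 0.64, permutation p = 0.022). Beyond these, the cause was not tested. Of 1058 values of single genes and lists, 984 kept their call, 38 moved, 20 newly passed and 16 no longer passed, and 0 reversed. Few counts limit genes below 5 CPM.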
